A study of Bos taurus with 2 samples.

Results

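SOX9, SOX8, WT1, GATA4, GATA1, DMRT1 and NR2F2 are transcription factors of the somatic gonad, the supporting and interstitial cells that surround the germ line. The 7 genes were taken by symbol from the 24616 Ensembl genes listed for each of 2 bovine testis libraries, and each symbol matched 1 listed gene. RNA was sequenced from seminiferous tubules, the coiled tubes in which sperm form, of 2 calves, one of 3 months and the other of 9 months of age. Each age had 1 library, and "at 3 months" and "at 9 months" below refer to these libraries. They were made from total RNA of tubule pieces that were frozen after the testes were removed. No treatment or genetic change is named for either calf, and breed is not given in the sources used here. The comparison asked how expression in the tubules differs between the younger and the older calf. With 1 library per age no difference has a replicate check, no test across animals is possible, and each value compares these libraries.

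In the fetal testis the supporting cell lineage becomes Sertoli cells when SRY, encoded on the Y chromosome, switches on SOX9, an HMG-box factor that then drives testis genes such as AMH. SOX8, a close relative of SOX9, can act on the same target genes. WT1, a zinc finger protein, and GATA4, a zinc finger protein that works with the cofactor encoded by ZFPM2, act from the earliest gonad onward and later in Sertoli cells. GATA4 also acts in Leydig cells, the steroid-making cells between the tubules. GATA1 is best known for red blood cell, megakaryocyte and mast cell development, and in rodents it is also found in Sertoli cells. DMRT1, a DM-domain factor, maintains the male identity of Sertoli cells and also acts in spermatogonia, the stem and progenitor cells of the germ line. NR2F2, an orphan nuclear receptor also called COUP-TFII, marks interstitial stroma and progenitors of Leydig cells and is also found in venous and lymphatic endothelium.

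Sequencing depth was 37600534 counts at 3 months and 29782234 at 9 months. The libraries were put on a common scale with trimmed mean of M values (TMM) factors, and a level in CPM is a gene's count relative to 1000000 scaled counts. A gene was treated as measured with at least 10 counts over both libraries, which 18025 genes reached. Values in brackets are 95% exact intervals, which cover counting error only. A call of higher or lower needed a difference of at least 2-fold and a ratio whose interval excluded 1. By this rule 28.0% of the measured genes were higher at 9 months and 22.8% were lower, with a median log2 ratio over all of them of 0.02. Sertoli cell genes, which mark the labelled tissue, were abundant in both libraries. CLU, a secreted protein of Sertoli cells, stood at 4725 CPM at 3 months and 1359 CPM at 9 months. RNA of Leydig cells, which lie outside the tubules, was abundant as well, with INSL3, a Leydig cell hormone, at 6107 and 1974 CPM.

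Of the 7 factors 6 were measured, and GATA1 was not. DMRT1 was higher at 9 months, and GATA4, NR2F2 and SOX8 were lower. SOX9 and WT1 lay within 2-fold. The median log2 ratio of the 6 was -0.84. Against a background of 28.0% higher and 22.8% lower over all measured genes, 1 higher and 3 lower of 6 is no result about these factors as a group.

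**Figure D1:**
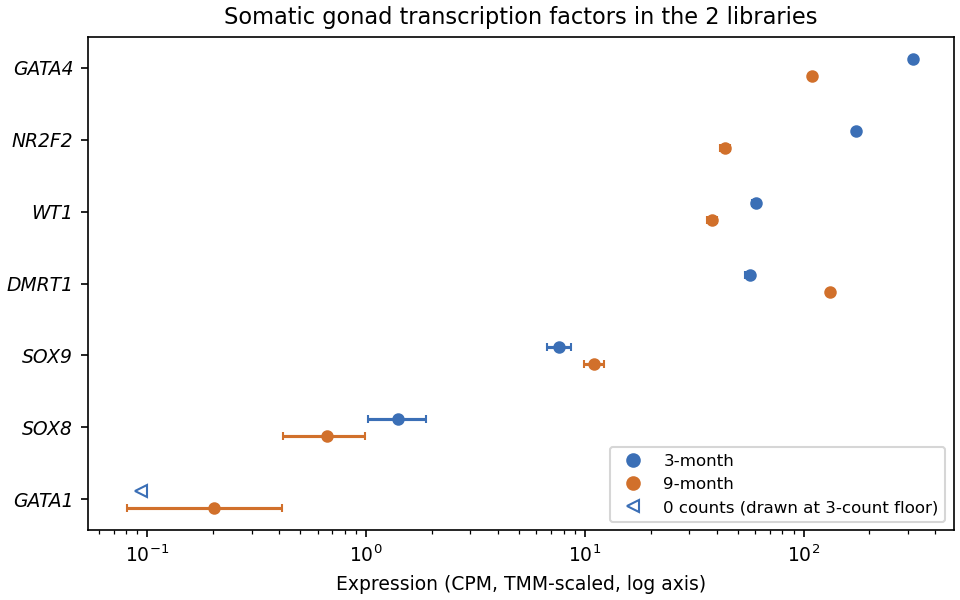
Expression of each transcription factor in CPM on a log axis, with blue points for the 3-month library and orange points for the 9-month library. Bars are 95% exact Poisson intervals of the count, and an open triangle marks 0 counts, drawn at the 3-count floor of 0.0933 CPM. The points of GATA4, NR2F2, WT1 and SOX8 lie further left at 9 months, and those of DMRT1 and SOX9 further right.

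Among the factors of the Sertoli cell lineage, SOX9 (ENSBTAG00000045824) had 246 counts at 3 months and 384 at 9 months, which are 7.65 CPM [6.73 to 8.67] and 11.0 CPM [9.95 to 12.2]. The 9-month value was 1.44-fold higher [1.22 to 1.70], and the counting intervals of the libraries did not overlap. Its log2 ratio of 0.52 lay above those of 62.8% of the measured genes. SOX8 (ENSBTAG00000020737) had only 45 and 23 counts, or 1.40 CPM [1.02 to 1.87] and 0.660 CPM [0.419 to 0.991]. It was 2.12-fold lower at 9 months [1.26 to 3.67], a call that rests on few counts and is lost when the libraries are scaled to their plain totals (log2 ratio -0.59). The pair therefore moved apart, and the ratio of SOX9 to SOX8 counts was 3.05 times larger at 9 months [1.76 to 5.42], a value that no scaling of the libraries can alter.

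WT1 (ENSBTAG00000047268) had 1953 and 1332 counts, or 60.8 CPM [58.1 to 63.5] at 3 months and 38.2 CPM [36.2 to 40.3] at 9 months. It was 1.59-fold lower [1.48 to 1.70] and stayed within 2-fold. GATA4 (ENSBTAG00000005425) had the most counts of the 7 factors at 3 months, 10128, against 3826 at 9 months. Its level was 315 CPM [309 to 321] and 110 CPM [106 to 113], which is 2.87-fold lower [2.76 to 2.98]. Only 13.7% of the measured genes had a lower log2 ratio than its -1.52. In pieces of tissue, fewer cells of a type and less RNA per cell cannot be told apart.

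DMRT1 (ENSBTAG00000033352), shared by Sertoli cells and spermatogonia, was the factor with a call in the upward direction. It had 1823 counts at 3 months and 4620 at 9 months, or 56.7 CPM [54.1 to 59.4] and 132.6 CPM [128.8 to 136.5]. The 9-month level was 2.34-fold higher [2.21 to 2.47], and 25.0% of the measured genes had a larger log2 ratio than its 1.22. Markers of spermatogonia were given beside it because they are the other known source. Of 11 measured markers of undifferentiated spermatogonia 4 were higher, 1 was lower and 6 lay within 2-fold. Over all measured genes 28.0% were higher and 22.8% lower. The summed level of the markers was 114 CPM at 3 months and 134 CPM at 9 months. No found marker of that list was at 0 counts in either library. TSPAN33, a membrane protein used as a marker of these cells and the most abundant of the list at 3 months, went from 52.5 to 10.7 CPM and was called lower. Without it, a choice made after its values were seen, the other 10 markers summed to 61.9 and 122.9 CPM, 1.99-fold higher at 9 months. As TSPAN33 was the 1 marker called lower, leaving it out had to raise the ratio, and no direction is drawn from it. UCHL1, a spermatogonial enzyme, stood at 27.7 and 46.4 CPM and lay within 2-fold. ZBTB16, a factor of spermatogonial self-renewal, stood at 5.79 and 12.4 CPM and was called higher. The part of these cells in the DMRT1 difference was not tested.

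NR2F2 (ENSBTAG00000018007), the interstitial factor, had the lowest ratio of the 6. It had 5606 counts at 3 months and 1522 at 9 months, or 174 CPM [170 to 179] and 43.7 CPM [41.5 to 45.9]. It was 3.99-fold lower [3.77 to 4.23], and 7.94% of the measured genes had a lower log2 ratio than its -2.00. Markers of interstitial stroma were lower in sum, from 3995 to 1167 CPM, which is 3.42-fold, with 5 of 11 measured markers lower, 1 higher and 5 within 2-fold. DCN, a proteoglycan of stromal matrix, went from 1395 to 94.9 CPM and was 14.7-fold lower [14.2 to 15.2]. COL3A1, a collagen of loose connective tissue, stood at 792 and 415 CPM and lay within 2-fold. Endothelial markers summed to 278 and 171 CPM, with 10 of 12 lower and 2 higher. Among all measured genes 22.8% were lower and 28.0% higher. None of the found markers of either list was at 0 counts, and the part of either cell type in the NR2F2 difference was not tested.

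GATA1 (ENSBTAG00000003184) was close to the limit of detection in both libraries. It had 0 counts at 3 months, whose exact interval reaches 0.115 CPM, and 7 counts at 9 months, or 0.201 CPM [0.0808 to 0.414]. Against a floor of 3 counts, or 0.0933 CPM at 3 months, the 9-month value was 2.15-fold higher. That is a point value on 7 counts, and the 9-month interval reaches below the floor. The lower end of the exact interval of the ratio was 1.33. Among the blood lineages in which GATA1 is known, erythroid markers were scarce, with 6 genes summing to 5.29 CPM at 3 months and 2.76 CPM at 9 months. Of the 4 measured ones 3 were lower and 1 had neither call, beside 22.8% lower over all measured genes. HBB, a globin chain, had 31 and 0 counts, HBA 20 and 7, AHSP, which stabilizes globin, 24 and 41, and EPOR, the erythropoietin receptor, 91 and 43. ALAS2, an enzyme of haem synthesis, had 2 and 0 counts, and KLF1, an erythroid factor, 2 and 5.

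Of 5 measured genes of mast cells and megakaryocytes 4 were higher and 1 lay within 2-fold, beside 28.0% higher over all measured genes. The 12 found genes summed to 14.1 CPM at 3 months and 67.0 CPM at 9 months. CPA3, a mast cell protease, had 4 counts at 3 months and 42 at 9 months, HDC, which makes histamine, 3 and 17, and FCER1A, a mast cell receptor chain, 5 and 2. ITGA2B, a platelet integrin chain, had 294 and 1710 counts, or 9.15 and 49.1 CPM, and made up most of the sum. TAL1, a blood and endothelial factor, had 96 and 488 counts, and NFE2, a megakaryocyte factor, 48 and 68. The platelet genes GP1BA, GP9 and PF4 had 2 and 7, 1 and 1, and 1 and 0 counts. MS4A2, PPBP and GP6 were at 0 counts in both libraries. The part of blood cells in the GATA1 counts was not tested.

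**Figure D2:**
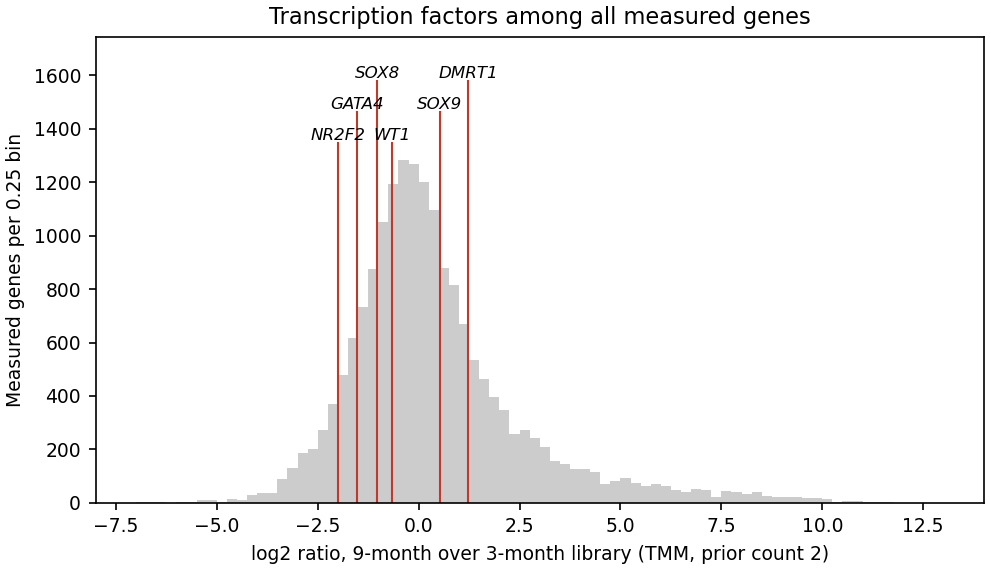
Distribution of the log2 ratio of the 9-month to the 3-month library over the 18025 measured genes in bins of 0.25 (grey bars, genes per bin), with red lines at the 6 measured transcription factors. NR2F2 at -2.00 and DMRT1 at 1.22 are the outermost of the 6, and genes with smaller and larger ratios lie on both sides of them.

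The calls depended in part on the scaling of the libraries. Relative to TMM, log2 ratios of all genes shifted by 0.45 with plain library totals and by -0.10 with upper-quartile scaling. With plain totals 36.2% of all measured genes were higher and 14.7% lower, DMRT1 was higher, and GATA4 and NR2F2 were lower. DMRT1 was higher under each of the 6 scalings tried. GATA4 and NR2F2 were lower under 5 of them. The exception was scaling to the summed counts of 59 marker genes of somatic cells, which shifted log2 ratios by 1.96, since that sum took 2.85% of the counts at 3 months and 1.00% at 9 months. On that scale SOX9, WT1 and DMRT1 were higher, and GATA4 and NR2F2 lay within 2-fold at log2 ratios of 0.44 and -0.04. With that scaling 74.8% of all measured genes were higher and 2.46% lower, and 4 genes made up most of the 3-month sum: STAR with 20.1%, INSL3 with 18.3%, CLU with 14.2% and CYP17A1 with 10.8%.

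**Figure D3:**
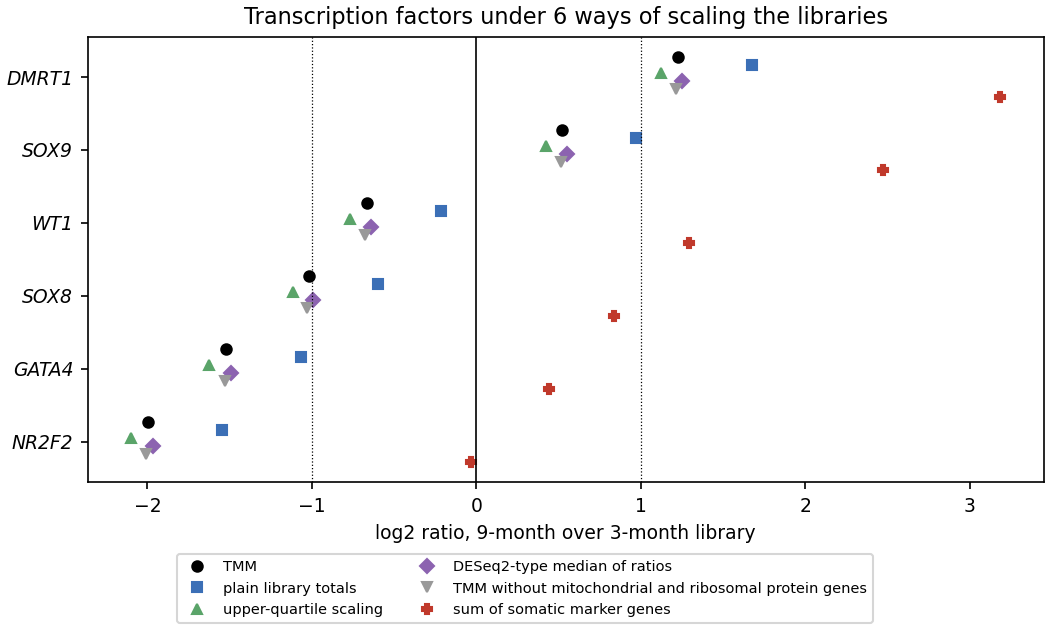
Log2 ratio of the 9-month to the 3-month library for the 6 measured transcription factors under 6 scalings of the libraries (symbols), with dotted lines at 2-fold. Each scaling shifts all log2 ratios nearly alike, so the order of the factors is fixed by construction. The red crosses, for the sum of somatic marker genes, lie up to 1.96 to the right of the black circles for TMM.

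Levels of different genes can be compared per length, for which the deposited RPKM (counts per kilobase of gene length, relative to the plain library total) were used. In the 3-month library GATA4 was the highest at 86.9 RPKM, above 94.3% of the measured genes, followed by NR2F2 at 49.3, DMRT1 at 45.3, WT1 at 37.7, SOX9 at 9.65 and SOX8 at 0.777 RPKM. No neighbours in that order had overlapping counting intervals. In the 9-month library DMRT1 led at 145 RPKM, above 96.4% of the measured genes, followed by GATA4 at 41.5, WT1 at 32.4, SOX9 at 19.0, NR2F2 at 16.9, SOX8 at 0.501 and GATA1 at 0.169 RPKM. There the intervals of SOX9 [17.2 to 21.0] and NR2F2 [16.1 to 17.8] overlapped, as did those of SOX8 [0.318 to 0.752] and GATA1 [0.0680 to 0.348]. The lengths behind these values ranged from 678 bases for SOX9 to 3099 bases for GATA4, and whether they cover the whole transcripts was not tested. The place of SOX9 in both orders rests on its short length, an uncertainty that the counting intervals do not cover.

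The same data can be put as ratios between factors, which are free of the scaling. Of 15 pairs among the 6 measured factors, 13 had a ratio whose change between the libraries excluded 1 at the counting interval. The pairs reuse the same 6 genes, and the share over all gene pairs was not computed. The count is therefore no result about these factors. DMRT1 relative to NR2F2 changed most, from 0.919 to 8.58 in RPKM, 9.33-fold [8.62 to 10.1]. DMRT1 relative to GATA4 went from 0.521 to 3.50, 6.71-fold [6.28 to 7.17]. SOX9 relative to GATA4 was 4.13-fold larger at 9 months [3.50 to 4.89], and WT1 relative to GATA4 1.81-fold [1.67 to 1.96]. GATA4 relative to NR2F2, the factors with the lowest ratios, still changed 1.39-fold [1.30 to 1.49]. The ratios of WT1 to SOX8 and of SOX8 to GATA4 had intervals that included 1, at 1.33 [0.786 to 2.32] and 1.35 [0.780 to 2.29].

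Relatives of the 7 factors from the same protein families went both ways, with 8 of 20 measured genes higher at 9 months, 6 lower and 6 within 2-fold, and a median log2 ratio of -0.49. Among all measured genes 28.0% were higher and 22.8% lower. GATA6, which overlaps with GATA4 in the gonad, was the other abundant GATA factor, at 60.0 CPM at 3 months and 11.7 CPM at 9 months. It was 5.13-fold lower [4.61 to 5.73], and GATA4 relative to GATA6 changed from 1.84 to 3.30 in RPKM, 1.79-fold [1.60 to 2.01]. GATA2 and GATA3, best known from blood cells, lay within 2-fold at 6.13 and 4.62 CPM and at 1.12 and 2.01 CPM, and GATA5 had only 10 and 5 counts. NR2F1, the closest relative of NR2F2, was 7.23-fold lower [6.04 to 8.71], from 28.7 to 3.96 CPM, and NR2F6 lay within 2-fold at 17.7 and 11.9 CPM.

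Of the DMRT family, DMRT2, DMRT3, DMRTA2 and DMRTB1 were higher at 9 months and DMRTA1 was lower. DMRTB1, which coordinates the passage from mitosis to meiosis in spermatogonia, went from 5 to 414 counts and from 0.156 to 11.9 CPM. DMRT1 relative to DMRTB1 went from 346.5 to 10.6 in RPKM, a 32.7-fold fall [13.8 to 101]. DMRTA1 went from 5.16 to 0.718 CPM, 7.20-fold lower [4.71 to 11.4]. DMRT2 had 12 and 194 counts, DMRT3 13 and 73, and DMRTA2 3 and 54. DMRT1 had the highest RPKM of the family in both libraries.

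SOX10, the other relative of SOX9 and SOX8 in the SOXE group, had 52 and 137 counts and was 2.43-fold higher [1.75 to 3.41]. Larger differences were seen in SOX30, which is needed for spermatid development, from 1.46 to 82.0 CPM, and in SOX5, from 3.05 to 51.2 CPM. SOX4 and SOX13 lay within 2-fold, at 14.3 and 8.55 CPM and at 24.7 and 16.3 CPM. EGR1, whose zinc fingers resemble those of WT1 and which also responds quickly to handling of tissue, was 2.60-fold lower [2.38 to 2.83].

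Of 27 measured partners and other regulators of the somatic gonad 12 were lower at 9 months, 3 higher and 12 within 2-fold. Over all measured genes 22.8% were lower and 28.0% higher. The median log2 ratio of the list was -0.94, and 1.02 when scaled to the sum of somatic marker genes. NR5A1, the nuclear receptor that acts with WT1, GATA4 and SOX9 on gonadal genes, went from 152 to 33.9 CPM and was 4.49-fold lower [4.21 to 4.78]. ZFPM2, the cofactor of GATA4, was 6.65-fold lower [5.73 to 7.75], from 38.7 to 5.83 CPM, and GATA4 relative to ZFPM2 changed from 9.09 to 21.0 in RPKM, 2.32-fold [1.99 to 2.71]. LHX9, a factor of the early gonad, went from 69.7 to 17.5 CPM, and CITED2, a coactivator of WT1, from 92.2 to 32.1 CPM. TCF21, a factor of interstitial stroma, had the lowest ratio of the abundant partners at 15.0-fold lower [13.3 to 17.0], from 119 to 7.95 CPM. HEYL, a Notch target, was 2.78-fold lower, while CTNNB1, the beta-catenin gene, and MAP3K4, a kinase upstream of SRY, lay within 2-fold.

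Genes of the ovarian somatic programme, which SOX9 and DMRT1 oppose, stood at low levels apart from 1 gene. Of 9 measured genes 3 were higher at 9 months, 2 lower and 4 within 2-fold. The shares over all measured genes were 28.0% higher and 22.8% lower. LHCGR, the receptor of luteinizing hormone, was the one abundant gene, at 257 and 17.1 CPM, and it is also a Leydig cell gene. The others stayed below 5 CPM in both libraries, among them CYP19A1, which makes oestrogen, at 1.59 and 4.54 CPM and RUNX1 at 0.933 and 2.21 CPM. IRX5 stood at 0.653 and 2.73 CPM, BMP2 at 2.64 and 1.38 CPM, IRX3 at 1.28 and 0.689 CPM, ESR2 at 0.747 and 0.287 CPM and FST at 0.373 and 0.459 CPM. FOXL2, the factor that maintains ovarian granulosa cells and is named here after its values were seen, had 8 and 2 counts.

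Of 25 measured genes known as targets of these factors in Sertoli cells, 14 were lower at 9 months, 7 were higher and 4 had neither call. The shares over all measured genes were 22.8% lower and 28.0% higher. The median log2 ratio of the 25 targets was -1.24. Setting the 2 genes with 0 counts at 3 months at their bound left the median at -1.24, and a minimum of 50 counts moved it to -1.84. AMH, a target shared by SOX9, WT1, GATA4 and NR5A1, went from 1185 to 34.0 CPM and was 34.8-fold lower [32.9 to 36.9], beside a SOX9 level that was 1.44-fold higher. INHA, which codes for a chain of the hormone inhibin, was 10.5-fold lower [10.3 to 10.8], and PTGDS, a prostaglandin synthase and SOX9 target, 3.58-fold lower [3.53 to 3.62]. FSHR, through which follicle-stimulating hormone acts on Sertoli cells, went from 183 to 28.7 CPM. CTSL, a protease, went from 819 to 70.1 CPM and TF, the iron carrier transferrin, from 545 to 86.8 CPM. In contrast CLDN11, a claudin that seals Sertoli cells to each other, stood at 6.44 and 319 CPM.

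Leydig cell targets of GATA4, NR2F2 and NR5A1 were lower in 6 of 9 measured genes, with 1 higher and 2 within 2-fold and a median log2 ratio of -3.09. Among all measured genes 22.8% were lower and 28.0% higher. STAR, which carries cholesterol into mitochondria, went from 6723 to 274 CPM, 24.6-fold lower [24.1 to 25.1], against 2.87-fold for GATA4 and 3.99-fold for NR2F2. CYP11A1 and CYP17A1, enzymes of steroid synthesis, were 24.1-fold and 8.54-fold lower, and SCARB1, which takes up cholesterol, 20.4-fold lower. AMHR2, the receptor of the AMH hormone, lay within 2-fold at 36.1 and 20.0 CPM. HSD17B3, the enzyme of the last step to testosterone, went from 2.43 to 19.7 CPM.

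**Figure D4:**
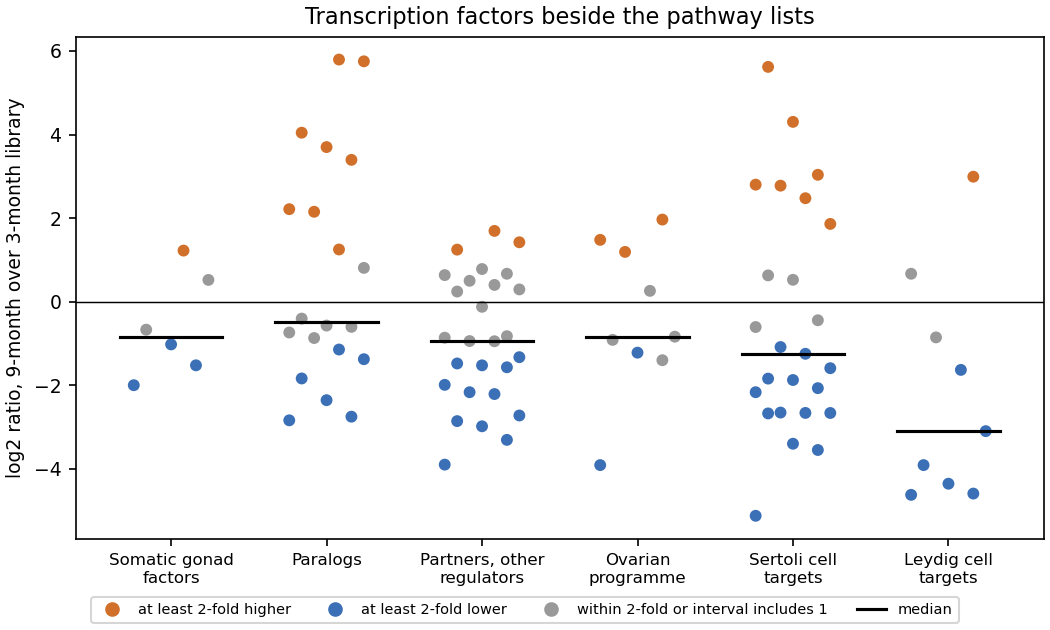
Log2 ratio of the 9-month to the 3-month library for each measured gene of the somatic gonad factors and the 5 pathway lists, with black bars at the list medians. Orange, blue and grey points mark genes called higher, lower and neither. The medians lie at -0.84 for the factors and at -0.49, -0.94, -0.83, -1.24 and -3.09 for the lists from left to right.

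Cell type markers are given beside these values. For their calls, the shares over all measured genes were 22.8% lower and 28.0% higher. The 20 measured Sertoli cell markers were 2.69-fold lower in sum, from 9707 to 3605 CPM, with 9 lower, 5 higher and 6 within 2-fold and a median log2 ratio of -0.73. Without ABP1, whose symbol is also an older name of an amine oxidase gene, 8 of 19 were lower and the median was -0.60. CLU, INHA and AMH made up 8188 CPM of the sum at 3 months. Without these 3 genes, left out after their values were seen, the other 17 summed to 1519 and 1995 CPM, 1.31-fold higher at 9 months. Each of the 3 was called lower with a ratio below that of the full sum, so leaving them out had to raise it. No direction of the Sertoli cell markers is drawn from it. Beside the list median of -0.73, the log2 ratios were -1.52 for GATA4, -0.67 for WT1 and 0.52 for SOX9. AARD, a Sertoli cell gene, stood at 531 and 1029 CPM and FATE1, a testis gene, at 88.2 and 246 CPM. Leydig cell markers were 6.68-fold lower in sum, with 7 of 8 lower and 1 higher. Peritubular myoid markers summed to 574 CPM at 3 months and 805 CPM at 9 months, with 2 of 8 higher, 2 lower and 4 within 2-fold. The markers called higher were ACTA2, at 84.6 and 244 CPM, and MYH11, a smooth muscle myosin, at 51.4 and 251 CPM. MYH11 was 4.89-fold higher [4.64 to 5.16]. Those called lower were MYLK, at 226 and 100 CPM, and CNN1, at 31.5 and 13.7 CPM. The higher sum rests on ACTA2 and MYH11. Macrophage and leukocyte markers were 2.03-fold lower in sum, with 5 of 12 lower, 1 higher and 6 within 2-fold.

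Germ cell markers went the opposite way. All 12 markers of meiotic spermatocytes and all 12 of spermatids were higher at 9 months, and their sums went from 37.9 to 677 CPM and from 5.01 to 3203 CPM. Over all measured genes 28.0% were higher. Of 6 markers of germ cells at any stage 5 were higher and 1 lay within 2-fold. Among them DDX4, an RNA helicase, went from 23.5 to 404 CPM, a 17.2-fold difference [16.0 to 18.5] against 2.34-fold for DMRT1. The age of the calf and the make-up of the tissue cannot be told apart with 1 library per age, and the part of cell make-up in the values of the 7 factors was not tested.

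**Figure D5:**
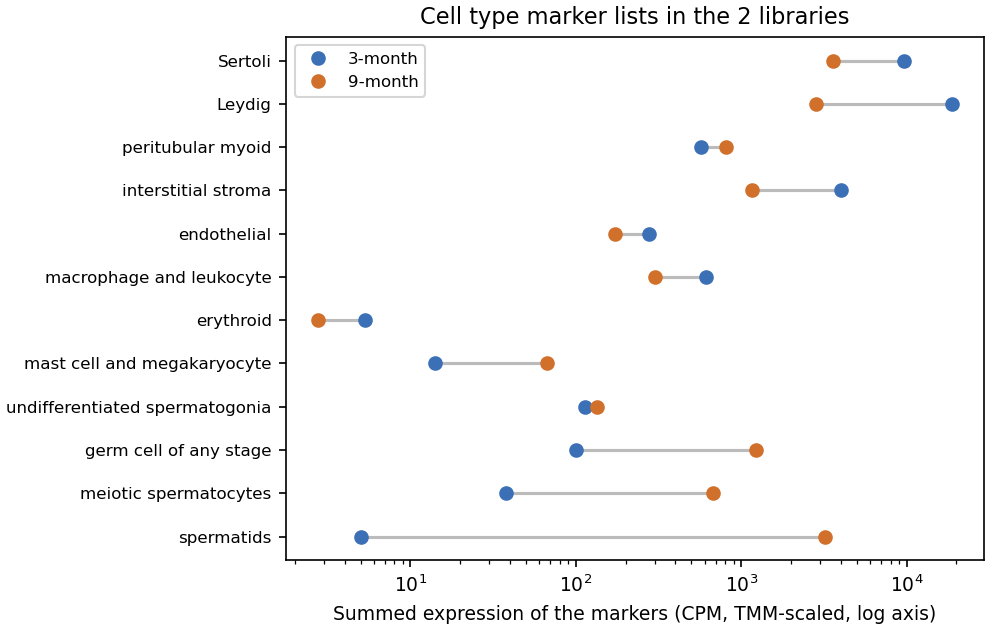
Summed expression of the found markers of 12 cell types in CPM on a log axis, with blue points for the 3-month library and orange points for the 9-month library. Sums of Sertoli cell, Leydig cell, interstitial stroma, endothelial and leukocyte markers lie lower at 9 months, and those of meiotic spermatocytes and spermatids lie higher. The Sertoli cell sum rests on CLU, INHA and AMH, all called lower, and lies higher when these are left out after their values were seen.

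For each measured factor the genes of the pathway and cell type lists closest in level were sought by distance in log2 CPM over the 2 libraries, among 189 candidates. SOX9 was closest to CBX2, a chromatin factor of testis determination, which stood at 7.75 and 11.0 CPM, at a distance of 0.0179. GATA4 was nearest to MYLK, a smooth muscle kinase, and CTNNB1, WT1 to SMTN and PTPRC, and DMRT1 to MAP3K4 and MYH11. NR2F2 was nearest to C1QB, a complement chain of macrophages, at 182 and 36.9 CPM, and then to NR5A1. SOX8 was nearest to IRX3 and ESR1, and the gene after CBX2 for SOX9 was ZBTB16. Over all measured genes, those at least as near to a factor as its first neighbour were counted, that neighbour included. The number was 1 for SOX9, 16 for SOX8, 19 for NR2F2, 103 for GATA4, 171 for WT1 and 280 for DMRT1.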

How the data were processed

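RNA of seminiferous tubules from 1 calf of 3 months and 1 of 9 months was compared. Per the submitters' processing notes, Trimmomatic 0.33, STAR 2.4.0 and genome build UMD3.1 were used. Counting program, annotation release and strand setting were not given in the sources used here, so reads antisense to a gene could not be told apart. The deposited tables have no header. The authors deposited raw counts per gene, gene lengths and RPKM, which equals counts per kilobase relative to the table's total within 0.000496%. TMM factors of edgeR 4.0.16 under R 4.3.3 were 0.855 for the 3-month and 1.17 for the 9-month library. CPM are counts relative to the resulting effective sizes, and log2 ratios carry a prior count of 2. Ratios have 95% exact conditional binomial intervals, and changes of ratios between genes exact conditional odds ratio intervals. PCR reads need not be independent molecules, so intervals and floors cover counting error only. The interval code was tested on simulated data. Python 3.11.15 served with scipy 1.17.1, numpy 2.4.6, matplotlib 3.10.9 and pandas 2.3.3.

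The 7 factors, 5 pathway lists and 12 cell type lists were chosen with earlier results of these data known. The naming rule allowed up to 8 genes per list, those with the highest CPM in either library. It added the close relatives of each factor, every erythroid, mast cell and megakaryocyte gene with a count, and the 2 genes nearest to each factor. Many genes covered by that rule go unprinted, among them every marker of the endothelial, meiotic spermatocyte and spermatid lists. The printed genes are thus a selection. An erythroid marker is not reported here and was left out of its list. Where a symbol had several genes, the one with the most counts was used. Alternatives covered the scaling, the prior count and the minimum count.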

Additional observations from a re-analysis of the deposited data

How the results depend on the processing

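No paired analysis was possible because each age has 1 library, and no library could be left out. Across 9 alternatives, DMRT1 was called higher under each of them. GATA4 and NR2F2 were called lower under each except scaling to the sum of somatic marker genes. The prior and minimum counts could not change these calls. Only upper-quartile scaling and TMM without mitochondrial and ribosomal protein genes shift log2 ratios downward, at -0.10 and -0.01. The other scalings could not undo the DMRT1 call. Under that scaling 3 factors were higher and 0 lower, by size and interval with no test. Over all measured genes 74.8% were then higher and 2.46% lower. The median log2 ratio of the factors turned to 1.06. SOX8 and GATA4 turned to 0.83 and 0.44, and the medians of the paralogs, the partners, the ovarian programme and the Sertoli cell targets turned to 1.46, 1.02, 1.02 and 0.70. This follows from the scaling itself, which shifts log2 ratios by 1.96. With plain library totals the median of the factors was -0.41. There 2 factors were lower, since SOX8 was no longer called, against 14.7% of all measured genes. With a minimum of 1 count GATA1 entered, on 0 and 7 counts, and 2 factors were higher. Over all 21111 genes with that minimum 24.5% were higher. With a minimum of 50 counts the median of the ovarian programme turned to 0.18 and that of the Sertoli cell targets moved to -1.84, since genes of few counts dropped out. Prior counts of 0.5 and 10 do not enter the calls and moved no log2 ratio of a factor beyond its counting interval. They moved no list median beyond the medians of its genes' lower and upper interval bounds, which are not an interval of the median. Without CLU, INHA and AMH, a choice made after the data were seen, the log2 ratio of the summed Sertoli cell markers turned from -1.43 to 0.39. All of these genes were called lower, so leaving them out had to move it upward. Depth limits GATA1, with 0 and 7 counts, and SOX8, with 45 and 23.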

Other observations

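SRY, the testis-determining gene on the Y chromosome, was singled out after its values were seen. It had 6 counts in the 3-month library, or 0.187 CPM. In the 9-month library it had 0 counts, where a floor of 3 counts is 0.0861 CPM. SRY was thus near the limit of detection in both libraries, beside SOX9 at 7.65 and 11.0 CPM.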
